A study of Drosophila melanogaster with 3 samples.

Results

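The 6 genes described here are ush, which encodes the Friend-of-GATA cofactor U-shaped, and the 5 genes of the GATA transcription factors of Drosophila melanogaster: pnr, srp, grn, GATAd and GATAe. They were chosen by name from 13945 protein-coding genes of the chromosome arms, with earlier results of these data known, above all the very strong site in ush. Each gene was taken with 10 kb on both sides, and all summits in that window were collected. The lists hold regions from chromatin immunoprecipitation followed by sequencing (ChIP-seq) with an antibody against GFP. The chromatin came from whole embryos of both sexes pooled, 0 to 10 hours old, of 1 transgenic line that stably expressed CG16815 with a GFP at its C terminus. Sonication left fragments in a size range of 200 to 800. There was 1 group of 3 biological replicates, all of that genotype, with no control library among the data used. The transgene adds a tagged copy of CG16815 to the line. Because whole embryos were used, a strong signal in few cells and a weak one in many cannot be told apart.

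GATA factors are zinc finger proteins that bind DNA words built around GATA. In the fly embryo, Serpent (srp) specifies endoderm, fat body and blood cells, Pannier (pnr) acts in the dorsal ectoderm, amnioserosa and heart, Grain (grn) in the nervous system and posterior spiracles, and GATAe in the differentiating midgut. U-shaped does not bind DNA as a GATA factor does. It binds the GATA proteins, limits the activity of Pannier in dorsal tissues, and acts with Serpent in blood cells.

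The final list of the authors held 3922 regions, called passing sites here, which were exactly the regions of highest signal in the pooled list of 18764. The replicate lists, which hold background too, had 30000, 21989 and 27358 regions in replicates 1, 2 and 3. A signal is the value of a region as the authors' peak caller wrote it. Its scaling is unknown, so lists were compared by rank, with rank 1 the highest signal. In each replicate, the 3922 best-ranked regions are called its best regions. The passing sites had a median signal of 218.4, the last of them 124.8 and the first region that did not pass 124.7. Read depth is unknown, so the intervals given cover counting error over sites only.

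Passing sites lay in the windows of 4 of the 6 genes, against 56.7% of all protein-coding genes. The window of ush held 17, those of srp, grn and GATAd 1 each, and those of pnr and GATAe 0. No passing summit lay within 500 bp of a transcription start site (TSS) of any of the 6 genes. At least 1 such summit was present at 15.9% of all protein-coding genes, so most genes had none. The values that drew attention to ush are part of how the genes were chosen, so all of this is a description and nothing was tested.

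The 2 strongest sites of ush and 3 sites ahead of its last TSSs are shown first, since they are the strongest sites of the gene and those nearest to its most downstream starts. All are dm6, plus strand, read 5′ to 3′ from the RefSeq genome (Release 6 assembly), which is also the coding strand of ush, and each is centred on the summit. Capitals mark a GATA motif, taken as GATA with an A or a T before it and an A or a G after it, on either strand (on the minus strand, the word is printed as its reverse complement, as in ush 16). The regions are chr2L:480932-481182 (ush 7), chr2L:480017-480117 (ush 6), chr2L:520819-520919 (ush 15), chr2L:522087-522187 (ush 16) and chr2L:522818-522918 (ush 17).
ush 7: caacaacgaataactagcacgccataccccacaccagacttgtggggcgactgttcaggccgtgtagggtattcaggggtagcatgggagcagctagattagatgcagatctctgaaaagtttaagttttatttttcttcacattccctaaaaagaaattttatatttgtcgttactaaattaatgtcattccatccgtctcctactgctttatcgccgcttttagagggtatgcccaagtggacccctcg
ush 6: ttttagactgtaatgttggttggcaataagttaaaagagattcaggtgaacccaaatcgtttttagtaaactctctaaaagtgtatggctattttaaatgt
ush 15: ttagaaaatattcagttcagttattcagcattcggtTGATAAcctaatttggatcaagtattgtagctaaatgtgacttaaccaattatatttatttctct
ush 16: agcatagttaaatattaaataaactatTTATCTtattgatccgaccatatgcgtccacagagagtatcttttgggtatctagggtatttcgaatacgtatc
ush 17: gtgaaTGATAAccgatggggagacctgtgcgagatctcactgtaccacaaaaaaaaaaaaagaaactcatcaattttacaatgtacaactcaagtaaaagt

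The only passing sites of the GATA factor genes follow, to show how far the GATA words lay from their summits. They are chr3R:8171547-8171797 (grn 1), chr3R:15984418-15984668 (srp 1) and chr2L:10339310-10339410 (GATAd 1), from the same source, strand and build.
grn 1: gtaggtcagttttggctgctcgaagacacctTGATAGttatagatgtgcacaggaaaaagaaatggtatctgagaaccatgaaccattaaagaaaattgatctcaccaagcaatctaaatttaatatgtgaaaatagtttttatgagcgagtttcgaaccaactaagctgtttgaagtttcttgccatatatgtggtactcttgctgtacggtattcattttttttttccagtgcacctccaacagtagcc
srp 1: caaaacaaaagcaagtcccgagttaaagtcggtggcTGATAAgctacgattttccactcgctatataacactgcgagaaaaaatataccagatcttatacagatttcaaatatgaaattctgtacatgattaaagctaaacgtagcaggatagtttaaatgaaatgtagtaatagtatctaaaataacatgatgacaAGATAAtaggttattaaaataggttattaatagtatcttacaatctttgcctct
GATAd 1: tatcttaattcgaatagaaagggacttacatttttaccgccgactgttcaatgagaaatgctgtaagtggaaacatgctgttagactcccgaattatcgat

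The gene ush (FBgn0003963) lies at 476220 to 540560 on 2L, plus strand, with 5 transcripts and 4 TSSs at 476220, 490835, 523466 and 523736. Its 17 passing sites are numbered from left to right. Of these, 12 lay inside the gene, 5 to its left and 0 to its right. All 17 lay left of 525392, where the first exon common to all ush transcripts starts, and 0 in the 25.2 kb from there to the end of the window. That stretch held 3 regions of the pooled list, all under the threshold. The passing sites thus lay around and between the alternative starts of the gene and in its left neighbourhood.

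**Figure D1:**
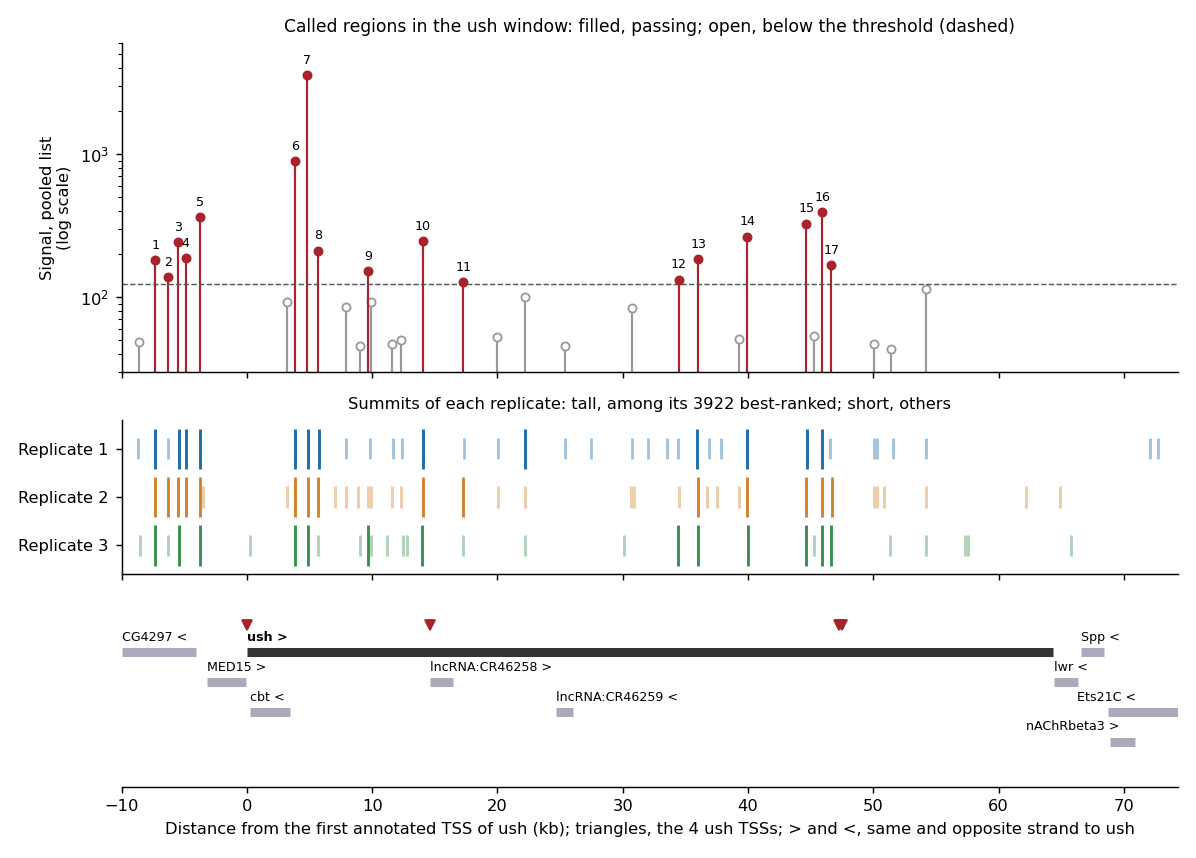
Map of the ush window. The top panel gives the signal in the pooled list (log scale) against distance from the first TSS of ush in kb, the middle panel the summits of each replicate and the bottom panel the annotated genes; the 17 filled points are the passing sites, with site 7 at 3562.3, and 0 of them lie to the right of the last ush TSS.

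The strongest site, ush 7 (480862 to 481310, summit 481057), had a signal of 3562.3 and was second of all 18764 pooled regions. It ranked 1 in replicate 1, 2 in replicate 2 and 2 in replicate 3, with signals of 941.2, 1960.7 and 685.5 in those lists. No replicate stands apart here: the site was first or second in each. Its signal was 3.99 times that of the next ush site and 16.3 times the list median. The summit was in the first intron of the longest ush transcripts, 4837 bp downstream of the first ush TSS. It was nearer to cbt (cabut), a zinc finger gene that acts in dorsal closure and lies in the same intron on the opposite strand: its summit was 1369 bp upstream of the cbt TSS.

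The next site by signal, ush 6 (479893 to 480242, summit 480067), was a promoter site of cbt, 379 bp upstream of its TSS and 3847 bp downstream of the first ush TSS. Its signal was 891.8 and its pooled rank 140, with ranks of 142, 135 and 216 in replicates 1, 2 and 3. On the other side of the strongest site lay ush 8 (summit 481916), with a signal of 211.8 and ranks of 1496, 1726 and 12512. The first 2 replicates placed ush 8 close together and replicate 3 far lower. Nearest coding TSSs were those of ush for 9 of the 17 sites, CG4297 for 5 and cbt for 3, so a window of 10 kb credits to ush sites that are nearer to other genes.

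The 5 sites to the left of ush lay in or just ahead of CG4297. The strongest of them, ush 5 (summit 472492), had a signal of 361.4, ranks of 1077, 737 and 1555, and lay 292 bp upstream of a CG4297 TSS. Its summit was between that TSS and the start of MED15, a gene on the opposite strand to CG4297. The site ush 4 (summit 471346), 209 bp downstream of another CG4297 TSS, had a signal of 188.6 and ranks of 1854 and 1643 in replicates 1 and 2, with no summit within 150 bp in replicate 3. The others were in introns of CG4297, with signals of 182.1 for ush 1, 137.7 for ush 2 and 242.0 for ush 3. Replicate 2 ranked each of the 5 sites best.

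Around the second ush TSS, at 490835, lay ush 9, 10 and 11. The site ush 10 (490211 to 490341, summit 490238) had a signal of 246.2, ranks of 1914, 1630 and 1821, and lay 597 bp upstream of that TSS. Its summit was in an exon (489517 to 491358) of 1 of the 5 ush transcripts, in 5′ UTR sequence. The replicates placed ush 10 alike. The site ush 9 (summit 485876, signal 152.8) had no summit within 150 bp in replicate 1 and ranked 4603 and 1093 in replicates 2 and 3. The weakest of the 17, ush 11 (summit 493501, signal 127.7), was among the best regions of replicate 2 only, with ranks of 6228, 3274 and 7681.

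Ahead of the last pair of TSSs, at 523466 and 523736, lay ush 12 to 17. The strongest, ush 16 (521997 to 522228, summit 522137), had a signal of 394.0 and ranks of 829, 1122 and 411, at 1329 bp upstream of the nearer TSS. Next to it, ush 15 (summit 520869) had a signal of 327.2 and ranks of 1234, 1213 and 722, at 2597 bp upstream. The closest, ush 17 (summit 522868), had a signal of 168.2 and ranks of 4755, 3573 and 2300, at 598 bp upstream. Replicate 3 ranked each of ush 15, 16 and 17 best. Farther to the left, ush 14 (summit 516161, signal 265.0) ranked 1757, 1482 and 1516. The site ush 13 (summit 512247, signal 184.7) ranked 1995, 2767 and 2589. The site ush 12 (summit 510697, signal 133.0) ranked 4255, 6285 and 1332, a wider spread than at ush 13 and 14.

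**Figure D2:**
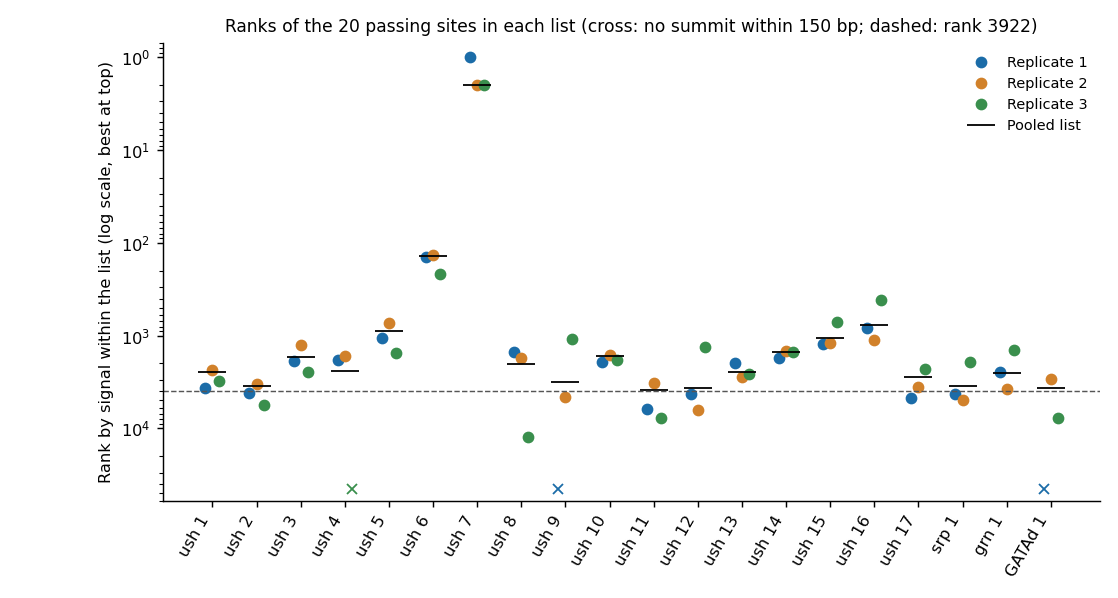
Ranks of the 20 passing sites in the windows of the 6 genes. Each point is the rank by signal in 1 replicate list (log scale, best at the top), the bar the rank in the pooled list and a cross a replicate with no summit within 150 bp; the 3 replicates lie at ranks 1, 2 and 2 at ush 7 and at ranks 1496, 1726 and 12512 at ush 8.

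Replicates differed in where they placed the ush sites. Replicate 3 gave the worst rank, or no summit, at 6 of the 8 sites numbered 1 to 8 and at 1 of the 9 sites numbered 9 to 17, against 49.4% of all passing sites. It gave the best rank at 0 of the first 8 and 5 of the last 9, against 34.7% of all. The split between sites 8 and 9 was chosen after the values were seen and was not tested. In the whole window, all 3 replicate lists held a summit within 150 bp of 15 of the 17 sites, against 87.1% of all passing sites, and the other two were in 2 lists. All 3 replicates held 10 of the 17 among their best regions, against 56.9% of all. Both shares are near those of the whole list. Counted in each replicate list, the ush window held 13, 15 and 13 best regions in replicates 1, 2 and 3 (13.7 ± 1.15, SD, n = 3). Of these, 1, 0 and 0 lay away from a passing site, so this is not an independent count.

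By position, 13 of the 17 ush sites were intronic, against 34.9% of all passing sites. Promoter sites were 3 of the 17, against 46.6%, all of them at CG4297 or cbt, and 1 lay in a 5′ UTR. There were 0 intergenic sites, against 16.3%. The regions were 416 bp wide at 13 of the 20 sites of the 6 genes, against 60.1% of all passing sites. By signal, 8 of the 17 ush sites were above the median of the list. Apart from sites 6 and 7, the highest signal was the 394.0 of ush 16, at rank 762 of the list.

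By its number of passing sites, ush was the third of all protein-coding genes. Its window held 17 in 84.3 kb, or 201.6 per Mb, where 2L as a whole had 31.1 per Mb. That is 6.48 times the density of the arm, at which 2.62 sites would fall in a window of this length. The gene was chosen with its strong site known, and its sites lie close together. No interval is given for this density, and it was not tested. The median distance between neighbouring ush summits was 1409 bp (range 622 to 17196), against 12111.5 bp over all passing sites. Of 198 genes whose window is at least as long, 3 held at least 17 passing sites, ush included, and their median was 2. Over all coding genes the median was 1, and 2 genes held more than ush, CG1677 and kirre, with 19 each.

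**Figure D3:**
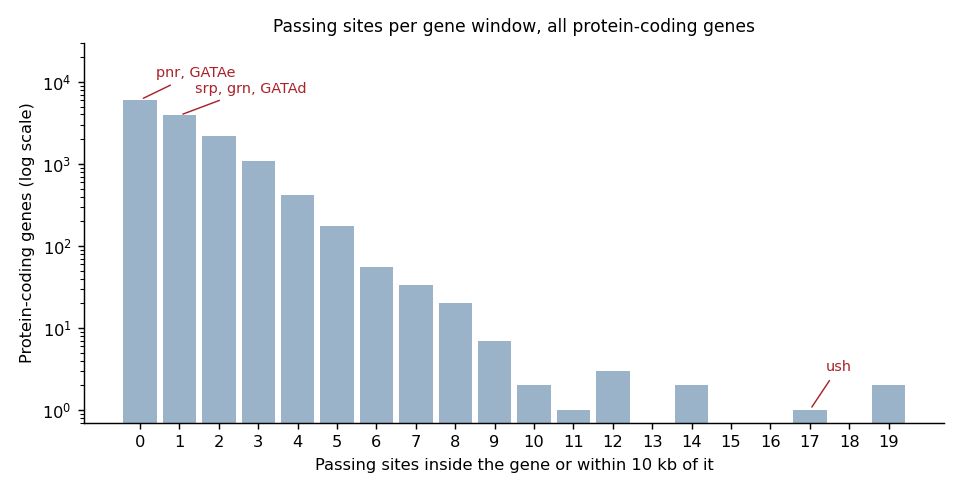
Number of protein-coding genes (log scale) by the number of passing sites inside the gene or within 10 kb of it. Most genes hold few, the 5 GATA factor genes hold 0 or 1, and ush with 17 lies near the end of the range, which reaches 19.

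Below the threshold, the ush window held 16 further regions of the pooled list. The best of these (summit 530395), 6659 bp downstream of the last TSS, had a signal of 114.1 and a pooled rank of 4332, with ranks of 8427, 4366 and 5373 in the replicates. The next, at 498418, had a signal of 101.0 and was among the best regions of replicate 1 only, with ranks of 3731, 4891 and 20627. On the passing side, the lowest values in the 6 windows were 127.7 for ush 11 and 132.4 for the site next to GATAd. All replicate lists together gave 36, 38 and 31 regions in the ush window, where the density of the arm would give 21.1, 15.2 and 19.9.

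The GATA factor genes looked different. The windows of srp (FBgn0003507, 15986152 to 16004085), GATAe (FBgn0038391, 16009105 to 16019133) and pnr (FBgn0003117, 16026079 to 16041796) overlap on 3R, where the 3 genes stand in a row on the plus strand. They were therefore also read as 1 block of 75.6 kb, from 15976152 to 16051796. The block held 1 passing site, or 13.2 per Mb (95% Poisson interval 0.335 to 73.7), against 29.3 per Mb on 3R, at which 2.21 would fall in it. At the density of 3R, so few sites would fall in this block that no count could show a shortage by this interval. Whether sites were short here was not tested.

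That site, srp 1 (15984335 to 15984750, summit 15984543), was intergenic, 1609 bp upstream of the first of 4 srp TSSs, with a signal of 137.9 and a pooled rank of 3521. Its ranks in replicates 1, 2 and 3 were 4287, 4954 and 1930. It was among the best regions of replicate 3 only, although all 3 lists had a summit within 150 bp. The summit of replicate 1 was 140 bp away, against 0 and 1 bp in replicates 2 and 3. The replicate 1 list held a stronger region in the srp window, at 16005341, with rank 3707. It lay in lncRNA:CR42839, on the opposite strand between srp and GATAe, and the matching pooled region (summit 16005404) had a signal of 59.8 and rank 8822.

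GATAe, a midgut gene, had no passing site, and its best pooled region (summit 16027661) had a signal of 60.5 and rank 8677, with ranks of 15695, 11233 and 6419 in the replicates. That region lay in an intron of pnr. Within GATAe itself the pooled list held 2 regions, the higher with a signal of 46.6. In pnr, which patterns dorsal tissues, the best region inside the gene (summit 16034000) was 586 bp upstream of the TSS at 16034586, with a signal of 70.9 and rank 7083. Replicate 3 placed a region at 16031024, in a pnr intron, among its best with rank 3525, where replicates 1 and 2 had no summit within 150 bp. The best pooled region of the pnr window, with a signal of 74.0 and rank 6766, was 118 bp upstream of the TSS of IKKbeta, an immune signalling kinase gene.

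The gene grn (FBgn0001138) lies at 8147368 to 8181444 on 3R, minus strand. Its passing site, grn 1 (8171464 to 8171879, summit 8171672), was in an intron, 9772 bp downstream of the only TSS, with a signal of 181.2 and a pooled rank of 2516. It ranked 2489, 3776 and 1446 in the replicates and so was among the best regions of all 3. It was the strongest site of the GATA factor genes and the only passing site inside one. Replicate 3 had 2 further regions among its best in the grn window, near 8180484 and 8189612, with ranks of 2673 and 3764. The pooled list gave these signals of 50.8 and 97.1, under the threshold.

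GATAd (FBgn0032223) lies at 10333734 to 10339185 on 2L, plus strand. Its passing site, GATAd 1 (10339152 to 10339567, summit 10339360), was past the end of GATAd and 97 bp upstream of the TSS of SamDC, which encodes an enzyme of polyamine synthesis. Its signal was 132.4 and its pooled rank 3668. Replicate 1 had no region anywhere in the GATAd window, replicate 2 ranked the site 2928 and replicate 3 ranked it 7815. Inside GATAd, the pooled list held 1 region, with a signal of 40.8.

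**Figure D4:**
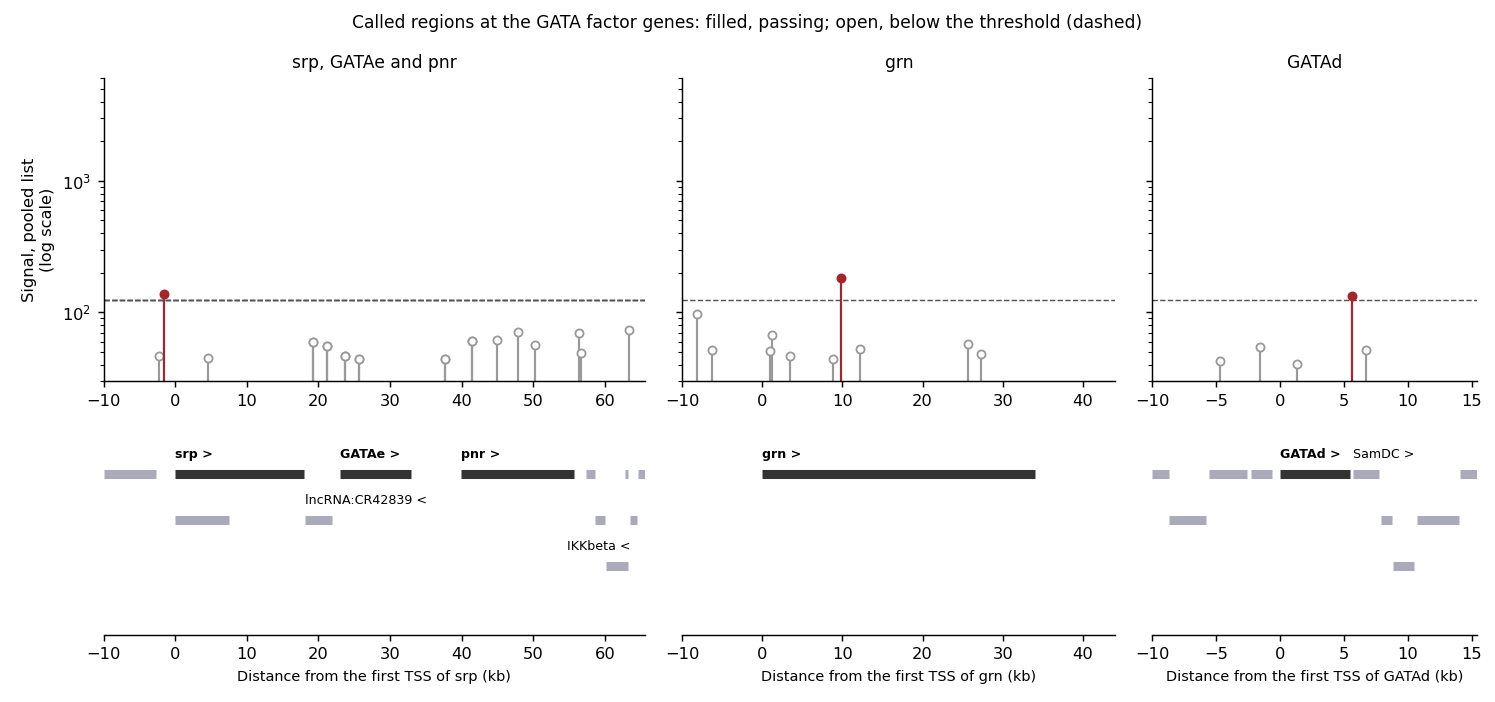
Maps of the windows of the 5 GATA factor genes, with signal in the pooled list (log scale) against distance in kb from the first TSS of srp, grn or GATAd in its own direction. Bars below are annotated genes (members in black, other genes in grey, of which 3 are named, tRNA genes left out); the 3 filled points are the passing sites, with signals of 137.9, 181.2 and 132.4, and all other regions lie under the dashed threshold.

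Counting each region once and with 10 kb on each side, the windows of the 5 GATA factor genes covered 155 kb and held 3 passing sites, where the density of the arms would give 4.59. The best regions of replicates 1, 2 and 3 in these windows numbered 2, 2 and 5 (3.0 ± 1.73, SD, n = 3). The spread between replicates is wide for counts this small. Gene by gene, no best region of replicate 1 lay at pnr or GATAd, none of replicate 2 at pnr, srp or GATAe, and none of replicate 3 at GATAd or GATAe. A best region lies in or near 55.9, 57.2 and 53.8% of protein-coding genes in the 3 replicates. The full lists held 19, 34 and 52 regions in these windows, where the arm densities would give 38.4, 26.5 and 32.0, so replicate 1 was below that level and replicates 2 and 3 above it.

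The DNA words read by GATA factors were searched in the 101 bp centred on each summit. A GATA motif was in 7 of the 17 ush sites, or 41.2%, and in 0 of the 3 sites of the GATA factor genes, against 24% of all passing sites. The ush sites come from 1 chosen gene and lie close together, so no interval is given for their share. Its difference from that of all sites was not tested. The share depends on the window searched: within 100 bp of the summit a motif was in 55.0% of the 20 sites of the 6 genes, against 35.0% within 50 bp, and in 39.8% of all passing sites. The 7 were ush 2 and 4, which lie in CG4297, and ush 11, 12, 15, 16 and 17, which lie in ush introns. In the sequences above, the middle of the word lay 11 bp left of the summit in ush 15, 20 bp left in ush 16 and 42 bp left in ush 17. The strongest sites, ush 7 and ush 6, had none, also not in the 251 bp around their summits. Among the 250 strongest passing sites, 22.8% had one. In srp 1 the nearest lay 75 bp right of the summit and in grn 1 91 bp left, outside the window searched, and GATAd 1 had none in 251 bp.

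Other words were searched in the same windows. The letters GATA alone, on either strand, were in 13 of the 20 sites of the 6 genes, or 65.0%, against 56.1% of all passing sites; every GATA motif holds these letters. The homeodomain word TAATTA was in 1 of the 20, against 11.0%, and GAGAG, of the GAGA factor, in 3, against 8.41%. The DRE word TATCGATA and the E-box CACGTG were in 0 of the 20, against 0.943 and 0.688% of all passing sites. No match says only that these letters are not in this window. The G+C content of the 101 bp at the summit had a median of 32.7% at the ush sites (range 23.8 to 52.5), against 30.7% over all passing sites. It was lower at the summit than in windows centred 450 bp away at 13 of the 17 ush sites and at 86.1% of all.

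Genes whose best ranks in the 3 replicate lists were most like those of ush (ranks 1, 2 and 2) were sought by Euclidean distance of log10 ranks over the 3 libraries. Windows overlap, so the windows of 3 other genes, CG4297, MED15 and cbt, hold ush 7 too and have the same best ranks. They were left out, and of genes that share another strongest site only the one with the nearest TSS was kept. Among the rest, the nearest was CG14100, with ranks of 2, 1 and 4 and a distance of 0.521. Next were ph-p, a Polycomb group gene, with ranks of 4, 6 and 3 and a distance of 0.788, and Chro, a chromodomain protein gene, with ranks of 5, 4 and 5 and a distance of 0.859. The gene px (ranks 7, 7 and 1, distance 1.05) and the UDP-galactose transporter gene Ugalt (ranks 3, 3 and 19, distance 1.10) followed. The strongest sites of these 5 were in the windows of 6, 3, 5, 1 and 7 genes in the order named, and the windows of the 5 held 1, 9, 3, 5 and 1 passing sites.

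Partners of U-shaped, and genes of tissues in which U-shaped or GATA factors act, were read from 7 lists with 79 distinct genes. These were chosen by known role, but with earlier results of these data known. A passing site lay in or within 10 kb of 52 of them, or 65.8%, beside the 56.7% of all coding genes. A passing summit within 500 bp of a TSS was found for 8, or 10.1%, beside 15.9%. The lists are small and their windows differ in length, so nothing particular to them is read from these shares.

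Partners and corepressors of U-shaped had a passing site at 8 of 12 genes, with a median of 1 site a gene. The strongest, with a signal of 2257.5 and ranks of 15, 11 and 7, lay 3954 bp from the TSS of Caf1-55, a histone-binding subunit of the NuRD and other chromatin complexes. The best site of the corepressor gene Smr had a signal of 1570.5 and ranks of 30, 38 and 32, in lncRNA:CR44619, 9754 bp upstream of Smr. The best site of simj, a NuRD subunit gene, had a signal of 1175.0 and ranks of 67, 53 and 293, within simj itself. No passing site lay at Chi, the LIM-domain-binding cofactor that acts with Pannier, nor at MEP-1, Rbf or Taf3.

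Amnioserosa and dorsal closure genes had one at 8 of 10. Their best signals were 782.3 for zen, whose site lay 8883 bp upstream in the neighbouring gene Ama, 435.9 for tup and 407.2 for InR, whose site was 656 bp upstream of the nearest InR TSS. Heart and dorsal mesoderm genes had one at 9 of 12. The highest signals were 1508.7 for Mef2, the muscle regulator, 569.3 for mid, and 483.9 for a site that Doc2 and Doc3 share. The site of Mef2 ranked 40, 42 and 44 in the replicates and lay 1075 bp upstream of a Mef2 TSS, inside Pal1.

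Blood cell specification genes had a passing site at 11 of 13, the highest share of the 7 lists. The 95% interval of that share was wide, 54.6 to 98.1%, and the share was not tested against the 56.7% of all coding genes. The 3 best sites of this list lay in other genes: that of Pvr (signal 1161.2) in CG8360, that of dome (1109.8) in Zw and that of gcm (785.5) in brwl. Blood cell effector genes had one at 7 of 12, with best signals of 690.9 for vkg (inside Rtnl1), 411.7 for Sr-CI and 403.5 for Hml (inside CG8745). Endoderm and gut genes had one at 6 of 9, with 307.4 for cad, 306.3 for Abd-B and 270.3 for hth. Proneural and notum genes had the lowest share, 4 of 12, with a 95% interval of 9.92 to 65.1%, which was not tested either. Among them are the achaete-scute genes that Pannier and U-shaped regulate in bristle formation. The best signals of this list were 334.1 for emc, 214.5 for ase (inside CG32816) and 150.1 for ara. The gene hry (hairy) had 145.2, while ac and sc had no site.

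**Figure D5:**
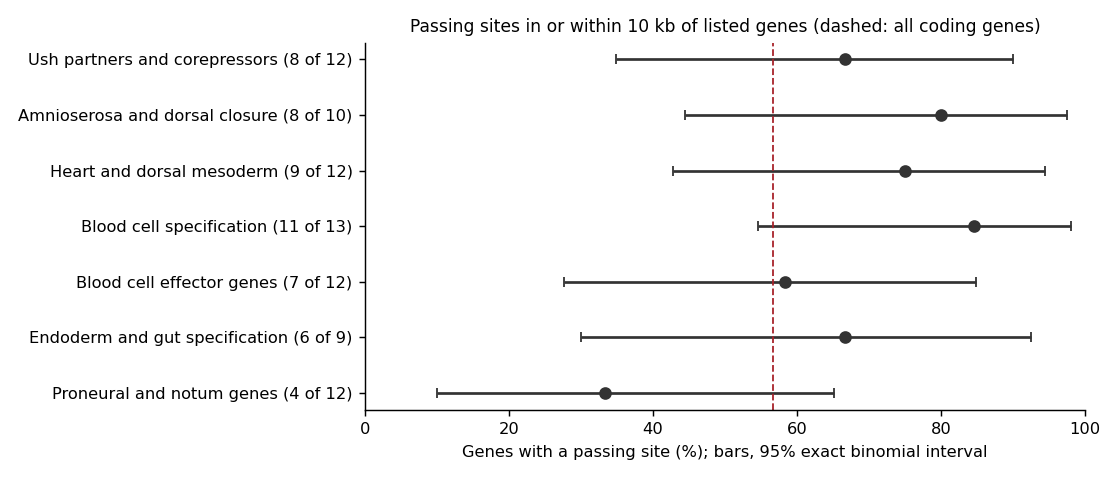
Share of genes with a passing site inside the gene or within 10 kb, for 7 lists of genes, with 95% exact binomial intervals. The lists hold partners of U-shaped and genes of tissues in which U-shaped or GATA factors act. The dashed line is the 56.7% of all protein-coding genes. The shares run from 4 of 12 proneural and notum genes to 11 of 13 blood cell specification genes. The intervals are wide and take genes as independent, though some share a site, and no list was tested against the line.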

How the data were processed

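The 6 genes, their windows and the 7 gene lists were chosen with earlier results of these data known. The deposited files are narrowPeak lists in dm6. Per the README text deposited with them, the authors called regions in each replicate and in the pooled alignments, and made the final list from these at an irreproducible discovery rate threshold. The same lists in dm3 were not used. No label or README used here names the aligner, the peak caller, the threshold or the signal scaling. The signal of each region is the authors' deposited value and was used only to rank and compare regions within a list. The deposited -log10 q-value was used only for alternatives with q under 0.05. The labels call the replicates biological and give 1 group, so no condition was compared and no p-value was computed.

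Summits were placed on Ensembl release 115 (BDGP 6.54, dm6 coordinates), whose bounds of the 6 genes differ by 0 bp from those of RefSeq. Windows reach 10 kb beyond each gene, promoters 500 bp around a TSS, and summits within 150 bp were shared. Motifs were searched within 50 bp of a summit, on both strands. Intervals are 95% exact binomial or Poisson. Python 3.11.15, pandas 2.3.3, numpy 2.4.6, scipy 1.17.1 and matplotlib 3.10.9 were used, and the motif and summit searches were tested on simulated data.

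The text names the 6 genes with every passing site in their windows, other coding genes with a nearer TSS, up to 3 genes a list with the highest signal, the 5 genes most like ush, and the best region of a window without a passing site. Other regions and genes without a site were named after their values were seen. Older symbols on the gene lists (bip2 for Taf3, h for hry) were matched through RefSeq synonyms, and all names then matched.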

Additional observations from a re-analysis of the deposited data

How the results depend on the processing

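Of 53 alternatives, 39 left the value within a set tolerance and 14 did not. The tolerance was 1.5 times for counts, 1 SD between replicates for means and ranks, and the 95% binomial interval for the motif share. It is wide: within it, ush held 12 passing sites in the gene body and 23 pooled regions with q under 0.05, and 10 ush sites were in all 3 lists with summits within 50 bp. The mean at the GATA factor genes was 1.67 in the gene bodies, and the motif share was 55.0% within 100 bp. Past the tolerance, in the gene bodies alone, 2 of the 6 genes had a passing site, the GATA factor genes held 1, and the mean of best regions per replicate at ush was 9.67. With 5 kb that mean was 11.3, and over replicate regions with q under 0.05 it was 16.7. With 20 kb, the GATA factor genes held 6 passing sites and a mean of 5.67 best regions. In the stronger 1961 passing sites, ush held 8, of which 8 had a summit in all 3 replicate lists, the GATA factor genes held 0, and 1 gene had a site. With promoters widened to 1000 bp, 1 gene, ush, had a passing summit at a TSS (597 and 598 bp away). The letters GATA alone were in 65.0% of sites within 50 bp. By mean replicate rank, ush 7 was rank 1.

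Leaving out 1 replicate at a time, the mean of best regions ran from 13.0 (without replicate 2) to 14.0 at ush and from 2.0 (without replicate 3) to 3.5 at the GATA factor genes, and the median rank of ush 7 from 1.5 to 2.0. No paired analysis was possible because there is 1 group and no test. Unknown read depth and the missing signal scaling limit comparisons between lists, windows of 10 kb credit sites to several genes, and no control library was analysed here.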
